A study of Mus musculus with 2 samples.

Results

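Cholesterol is built from acetyl-CoA in the cytosol and the endoplasmic reticulum. A first arm makes mevalonate and turns it into farnesyl diphosphate, and a second arm joins farnesyl units to squalene, closes the ring and trims lanosterol to cholesterol. SREBP2, encoded by Srebf2, is the membrane-bound transcription factor that switches these genes on when sterols in the membrane run low, and the hepatocyte is a main site of the pathway. The genes described here are Srebf2 itself and 6 enzyme genes known as SREBP2 targets (Hmgcs1, Idi1, Fdps, Fdft1, Sqle and Cyp51). These 7 genes were taken by name from 24377 genes in the table, all 7 were found, and each had more than the minimum summed count of 20 that 13523 genes reached.

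Liver RNA came from 2 pools of male C57BL/6 mice (C57BL/6J in the study's methods) killed 30 h after 300 mg/kg acetaminophen (APAP) given intraperitoneally, with 8 mice aged 9 to 11 weeks in each pool. All mice went without food for the 10 h that preceded APAP and were fed afterwards. The AZD7986 pool was given 5 mg/kg of this inhibitor of cathepsin C by mouth at 4 times, at 12 h ahead of APAP, with APAP, and again after 12 h and 24 h, and the vehicle pool was given vehicle as often. Pools without APAP were not analysed here. Each pool gave 1 library of 3′ transcript ends, so no test between the groups is possible, and an effect of AZD7986 and a difference between the mice pooled cannot be told apart. Intervals in brackets are exact 95% intervals and cover counting error only. The vehicle library holds 7657855 counts and the AZD7986 library 6700838, and a ratio is the AZD7986 count divided by the vehicle count, each first divided by the size factor of its library. This scaling sets the typical gene near 1: the 13523 genes had a median log2 ratio of −0.017, and without scaling every log2 ratio would lie lower, by −0.27.

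The start regions of 4 of the 7 genes were found in the RefSeq promoter table (GRCm38.p6), and they are shown because SREBP2 acts through a sterol regulatory element near the start of its target genes. Each is printed 5′ to 3′ on the strand of the gene, and stops where the first annotated transcript begins. Capitals mark matches to the element TCACNCCAC or to its core CACNCCA on either strand. The window of Hmgcs1 lies on chromosome 13, 119690101 to 119690350 (plus strand), that of Srebf2 on chromosome 15, 82147019 to 82147180 (plus strand), that of Idi1 on chromosome 13, 8885356 to 8885500 (plus strand), and that of Cyp51 on chromosome 5, 4104747 to 4104947 (minus strand).
Hmgcs1: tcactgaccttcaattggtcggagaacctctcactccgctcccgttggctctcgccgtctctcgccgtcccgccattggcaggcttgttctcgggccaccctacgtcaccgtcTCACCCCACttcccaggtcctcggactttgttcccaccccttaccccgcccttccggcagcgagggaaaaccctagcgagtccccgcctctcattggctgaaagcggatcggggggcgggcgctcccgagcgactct
Srebf2: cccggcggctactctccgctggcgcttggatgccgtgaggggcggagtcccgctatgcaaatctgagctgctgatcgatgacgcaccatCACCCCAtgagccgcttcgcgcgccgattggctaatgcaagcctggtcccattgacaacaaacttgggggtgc
Idi1: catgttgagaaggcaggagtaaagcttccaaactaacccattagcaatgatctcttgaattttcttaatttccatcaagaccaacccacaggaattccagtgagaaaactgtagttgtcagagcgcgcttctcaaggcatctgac
Cyp51: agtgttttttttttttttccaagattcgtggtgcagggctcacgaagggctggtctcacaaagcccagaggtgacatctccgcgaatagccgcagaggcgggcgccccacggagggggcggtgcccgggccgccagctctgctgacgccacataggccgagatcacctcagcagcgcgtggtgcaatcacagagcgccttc

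The element TCACNCCAC was found in the window of Hmgcs1, 137 bases before the RefSeq start, and in 1.24% of all 32851 windows of the table. The core CACNCCA, which lies inside that element, was found in 2 of the 4 windows, in Hmgcs1 and, 161 bases before the start, in Srebf2, against 18.4% of all windows. Partners of SREBP2 bind other boxes. The NF-Y box CCAAT and the Sp1 box GGGCGG were each present in all 4 windows of the members, some beyond the stretch printed, against 37.4% and 35.7% of all windows. The E-box CACGTG, which SREBP2 can also bind, was in 0 of the 4 and in 7.15% of all windows. Over the 19 genes of cholesterol synthesis listed here, 16 had a window in the table, and 15 of these held the NF-Y box against 41.1% of all 27025 genes with a window. TCACNCCAC was found in 1 of the 16, against 1.44% of all genes, its core CACNCCA in 3 of the 16, a share near the 20.6% of all genes, and the E-box in 3 of the 16, against 8.09%. These are matches of letters only.

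Of the 7 genes, Fdps, Hmgcs1, Idi1 and, to a lesser degree, Cyp51 were counted more often in the AZD7986 pool. Srebf2 and the genes of the enzymes that make and oxidize squalene were nearly level. Summed over the 7 genes, the vehicle library held 6625 counts and the AZD7986 library 7622, a ratio of 1.39 [1.34, 1.44]. The interval lay above 1 for 5 of the 7 genes (Fdps, Hmgcs1, Idi1, Cyp51 and, barely, Fdft1) and below 1 for 0. Among all genes tested the interval lay above 1 for 17.9% and below 1 for 15.1%. An interval excludes 1 more easily for a gene with many counts, so a second background holds the 4365 genes with at least as many counts as Srebf2, the least counted member (355 in all). There the interval lay above 1 for 37.5% and below 1 for 19.3%, and the members' 5 of 7 is read against that share. No member reached a ratio of 2 or fell to 0.5, which 2.23% and 3.72% of all genes tested did, and 0.733% and 0.344% of the deeper background. The members' median log2 ratio was 0.30, beside −0.017 for all genes tested and 0.081 for the deeper background.

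**Figure D1:**
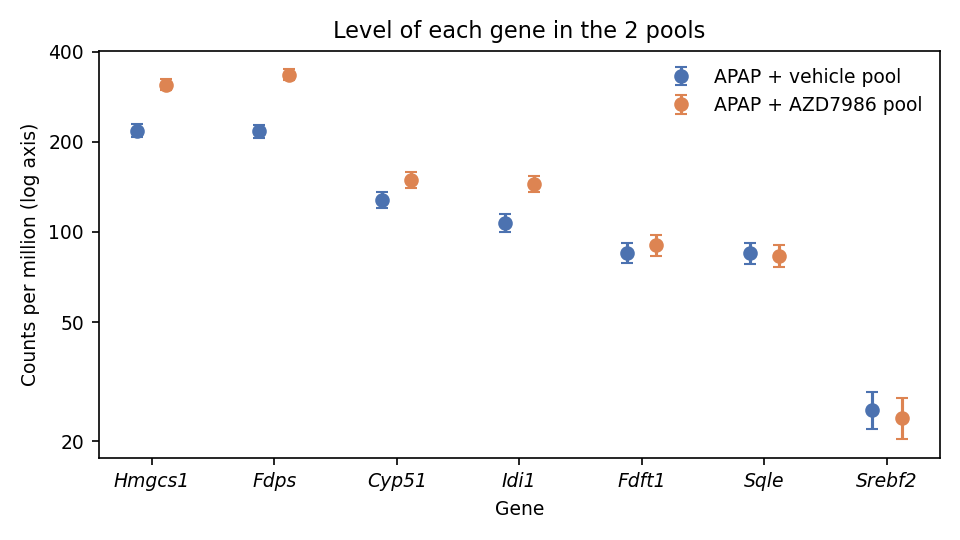
Level of each of the 7 genes in CPM (counts scaled to a library of 1000000, vertical log axis) in the vehicle pool and the AZD7986 pool, with exact 95% Poisson intervals as bars and 1 library per point. Hmgcs1, Fdps, Cyp51 and Idi1 sit higher in the AZD7986 pool, and the bars of both pools overlap for Fdft1, Sqle and Srebf2.

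Srebf2 encodes the factor that drives the other 6 genes, and its own promoter is known to respond to it. It had 195 counts with vehicle and 160 with AZD7986, which are 25.5 [22.0, 29.3] and 23.9 [20.3, 27.9] CPM, counts scaled to a library of 1000000. CPM values rest on library totals and ratios on size factors, so a pair of CPM values gives a log2 ratio shifted by −0.079. The ratio of Srebf2 was 0.99 [0.80, 1.23], so no difference was detectable at this depth. The protein works only after it has been cut free from the membrane, a step that transcript counts do not show.

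Among the genes of the first arm, Hmgcs1 encodes the cytosolic synthase that makes HMG-CoA. It had 1669 counts (218 CPM) with vehicle and 2080 (310 CPM) with AZD7986, a ratio of 1.5 [1.41, 1.61]. Idi1 encodes the isomerase that turns isopentenyl diphosphate into its reactive partner. It had 821 and 971 counts (107 and 145 CPM), a ratio of 1.43 [1.30, 1.57]. Fdps encodes the synthase that makes farnesyl diphosphate, the branch point to sterols, ubiquinone, dolichol and protein prenylation. With 1658 and 2245 counts (217 and 335 CPM) it had the highest ratio of the 7, 1.63 [1.53, 1.74]. A ratio at or above that of Fdps was found for 5.95% of all genes tested, at or above that of Hmgcs1 for 8.87% and at or above that of Idi1 for 11.5%.

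The remaining 3 genes belong to the sterol arm and lay closer to 1. Fdft1 encodes squalene synthase, the first enzyme that works for sterols alone. It had 651 and 605 counts (85 and 90.3 CPM), and its ratio of 1.12 [1.0, 1.25] has a lower bound just above 1. Without scaling the ratio of Fdft1 was 0.93, on the other side of 1. Sqle encodes squalene epoxidase, a slow and regulated step. It had 650 and 559 counts (84.9 and 83.4 CPM), a ratio of 1.04 [0.93, 1.16], and 43.2% of all genes tested had a ratio as high. Scaled by library totals, as CPM values are, the ratio of Sqle was 0.98. Cyp51 encodes the demethylase of lanosterol. It had 981 and 1002 counts (128 and 150 CPM), a ratio of 1.23 [1.13, 1.35], which 22.5% of the genes tested reached.

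Each fragment in these libraries stands for 1 transcript end, so levels in CPM can be set side by side between genes without a correction for length. In the vehicle pool the order of levels was Hmgcs1, Fdps, Cyp51, Idi1, Fdft1, Sqle and Srebf2. The counting intervals of the first pair and of Fdft1 and Sqle overlapped there, and those of the other neighbours did not. In the AZD7986 pool Fdps came before Hmgcs1, with intervals of 321 to 349 and 297 to 324 CPM that overlap at the edge. With the counts of its near-identical pseudogenes added, 2282 and 3040 in all, Fdps would come first in both pools. Cyp51 and Idi1 also overlapped there, as did Fdft1 and Sqle.

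The makeup of the 7 genes within a library needs no scaling. Fdps made up 25% [24.0, 26.1] of their counts with vehicle and 29.5% [28.4, 30.5] with AZD7986. Hmgcs1 went from 25.2% [24.2, 26.3] to 27.3% [26.3, 28.3], with intervals that nearly meet. Shares within a library add up to the whole, so a rise in some lowers others, and a lower share is not a lower level. The share of Sqle went from 9.81% [9.11, 10.6] to 7.33% [6.76, 7.94]. That of Fdft1 went from 9.83% [9.12, 10.6] to 7.94% [7.34, 8.57]. Cyp51 went from 14.8% to 13.1% and Srebf2 from 2.94% to 2.1%, while Idi1 went from 12.4% to 12.7%. With size factors the ratios of Sqle, Fdft1, Cyp51 and Srebf2 were 1.04, 1.12, 1.23 and 0.99. For each count of Sqle there were 2.55 counts of Fdps with vehicle and 4.02 with AZD7986. For each count of Srebf2 there were 8.5 and 14. Fdps and the squalene enzymes therefore differed between the pools by unequal amounts under any scaling.

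**Figure D2:**
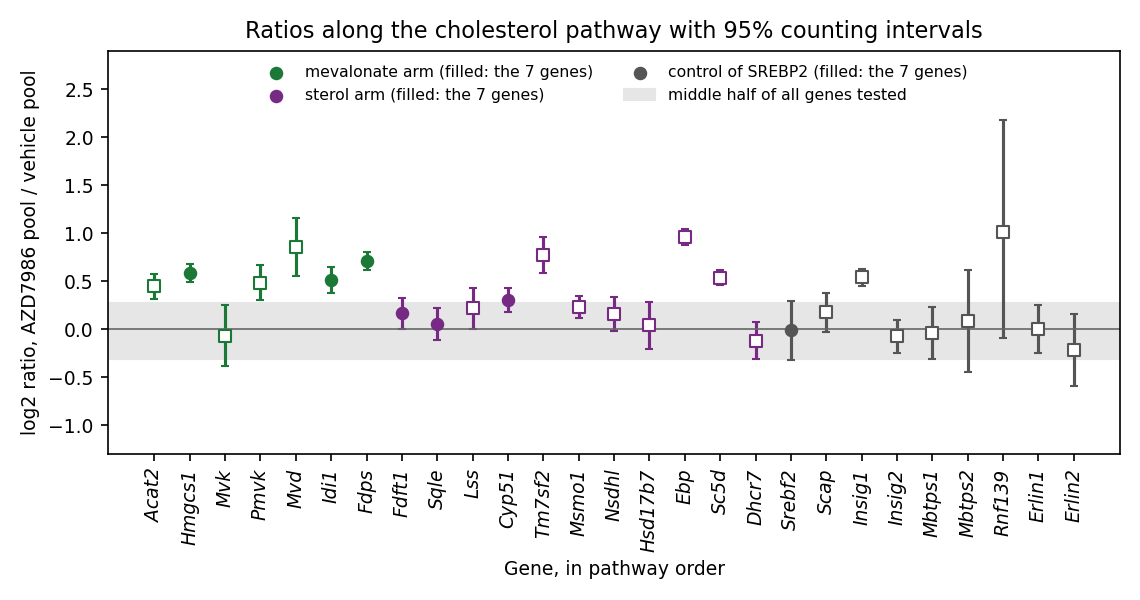
Log2 ratio of the AZD7986 pool over the vehicle pool for the genes tested in the mevalonate arm, the sterol arm and the control of SREBP2, in pathway order, with 95% counting intervals; filled circles are the 7 genes, open squares the other genes of each list, and the grey band spans the quartiles of all genes tested (ratios from 0.805 to 1.21). In the mevalonate arm 6 of 7 intervals lie above 0, and in the control group 1 of 9 does, beside 17.9% of all genes tested and 37.5% of the deeper background.

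The remaining enzymes of the pathway show where the 7 genes stand. In the mevalonate arm, 6 of 7 genes listed here had an interval above 1 and 0 below, with a median log2 ratio of 0.51. Since 6 of these 7 genes had more counts than Srebf2, the count is read against the 37.5% above 1 and the median of 0.081 in the deeper background. This list includes Hmgcs1, Idi1 and Fdps. Mvd, the decarboxylase that yields isopentenyl diphosphate, had the highest ratio of these 7, with 151 and 226 counts, 1.81 [1.46, 2.23]. The thiolase gene Acat2 (1.36 [1.25, 1.49]) and the kinase gene Pmvk (1.40 [1.23, 1.58]) lay near Idi1. Mvk, which encodes mevalonate kinase, was the exception with 190 and 150 counts, a ratio of 0.95 [0.76, 1.19].

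In the sterol arm 7 of 11 genes tested had an interval above 1 and 0 below, with a median log2 ratio of 0.22, beside the same 37.5% and 0.081, and the ratios ran from 0.92 to 1.94. Ebp, the sterol isomerase, had the highest, with 1867 and 3000 counts (1.94 [1.83, 2.06]). Tm7sf2, a sterol reductase, had 413 and 584 counts, 1.71 [1.5, 1.94], and the desaturase gene Sc5d, the most counted gene of this arm, 2277 and 2738 counts, 1.45 [1.37, 1.53]. Nearer to 1 were Msmo1 (1.18 [1.09, 1.27]), the cyclase gene Lss (1.16 [1.0, 1.35]), Nsdhl (1.12 [0.99, 1.26]) and Hsd17b7 (1.03 [0.87, 1.22]). Dhcr7, a reductase of the last steps, had 526 and 401 counts, and its ratio of 0.92 [0.81, 1.05] has an interval that includes 1. Lbr, which can replace Tm7sf2, had 9 and 3 counts and was left out of the median. Without scaling, the median of this arm was −0.054. The medians of the arms were compared without a test.

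Across both arms, 13 of the 18 genes tested had an interval above 1 and 0 below, beside 37.5% above and 19.3% below in the deeper background. The 13 listed synthesis genes outside the 7 had 9319 and 11045 counts in all, a ratio of 1.43 [1.39, 1.47], beside 1.39 for the members. Such sums weigh the most counted genes most. The median ratio was 1.27 for the 12 of these genes that were tested and 1.23 for the members. Of the genes that lead farnesyl diphosphate away from sterols, listed as isoprenoid branches, 0 of 5 tested had an interval above 1 and 1 had it below, beside 17.9% and 15.1% of all genes tested. These genes had few counts, 135 to 993 in all, and were not tested against the synthesis genes. The 1 below was Nus1, a subunit of the dolichol-making enzyme, with 596 and 397 counts, 0.80 [0.71, 0.91]. Coq2, an enzyme of ubiquinone synthesis, stood at 1.05 [0.85, 1.29], Ggps1, which makes geranylgeranyl diphosphate, at 1.18 [0.85, 1.62] and Pdss2 at 0.86 [0.60, 1.22].

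Among the genes that hold, release or degrade SREBP2 and its targets, 1 of 9 had an interval above 1 and 0 below. These shares were 17.9% and 15.1% among all genes tested, and 37.5% and 19.3% in the deeper background, which holds most of the 9. The median log2 ratio was 0.00034, beside −0.017 for all genes tested and 0.081 for the deeper background. Insig1 encodes the sterol-sensing anchor that keeps SREBP2 in the endoplasmic reticulum, and is itself an SREBP2 target. It had 1799 and 2164 counts, a ratio of 1.45 [1.36, 1.55], while the other anchor gene, Insig2, had 634 and 499 counts, 0.95 [0.84, 1.07]. For each count of Insig2 there were 2.84 counts of Insig1 with vehicle and 4.34 with AZD7986. The escort Scap stood at 1.13 [0.98, 1.30], and the proteases that cut SREBP2 free, Mbtps1 and Mbtps2, at 0.97 [0.81, 1.18] and 1.06 [0.74, 1.53]. Among genes of sterol-driven protein breakdown in the endoplasmic reticulum, Erlin1 had a ratio of 1.0 [0.84, 1.19] and Erlin2 0.86 [0.66, 1.11]. Rnf139, at 12 and 20 counts, had a ratio of 2.01 whose interval of 0.94 to 4.51 includes 1.

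Uptake and transport of sterols gave a mixed list, with a median log2 ratio of 0.020, beside 0.081 in the deeper background. Of its 9 genes tested, 2 had an interval above 1 and 0 below. Those shares were 17.9% and 15.1% among all genes tested, and 37.5% and 19.3% in the deeper background, which holds most of the 9. Tmem97 stood at 1.34 [1.18, 1.53] and Stard4, a carrier of free cholesterol, at 1.22 [1.06, 1.41]. Lrp1, another lipoprotein receptor, and Lipa, the lysosomal acid lipase, lay at 1.01 [0.94, 1.10] and 0.94 [0.86, 1.03].

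On the list of efflux and LXR genes, whose factors respond to surplus sterol, 1 of 7 had an interval above 1 and 2 below. The shares beside it are again those of all genes tested and of the deeper background, which holds most of these 7. The pumps Abca1 (532 and 291 counts, 0.66 [0.57, 0.76]) and Abcg1 (137 and 61 counts, 0.54 [0.39, 0.73]) were lower, and Nr1h3, which encodes LXRα, was higher (740 and 837 counts, 1.37 [1.24, 1.51]). Both pumps are also made by macrophages, and 4 of 10 macrophage markers had an interval below 1 and 2 above it. Of all genes tested 15.1% lay below and 17.9% above. In the deeper background, which holds most of these markers, 19.3% lay below and 37.5% above. The summed level of the macrophage markers was 711 CPM with vehicle and 613 with AZD7986, a ratio of 0.91 [0.87, 0.95] with size factors. Their part in the values of Abca1 and Abcg1 was not tested. Of the 4 esterification genes, Lcat, which esterifies cholesterol in plasma, had 1409 and 1503 counts, 1.29 [1.20, 1.39]. Soat2, its counterpart inside hepatocytes, stood at 1.15 [0.88, 1.49], Soat1 at 0.79 [0.54, 1.15] and the hydrolase gene Nceh1 at 0.93 [0.72, 1.21].

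**Figure D3:**
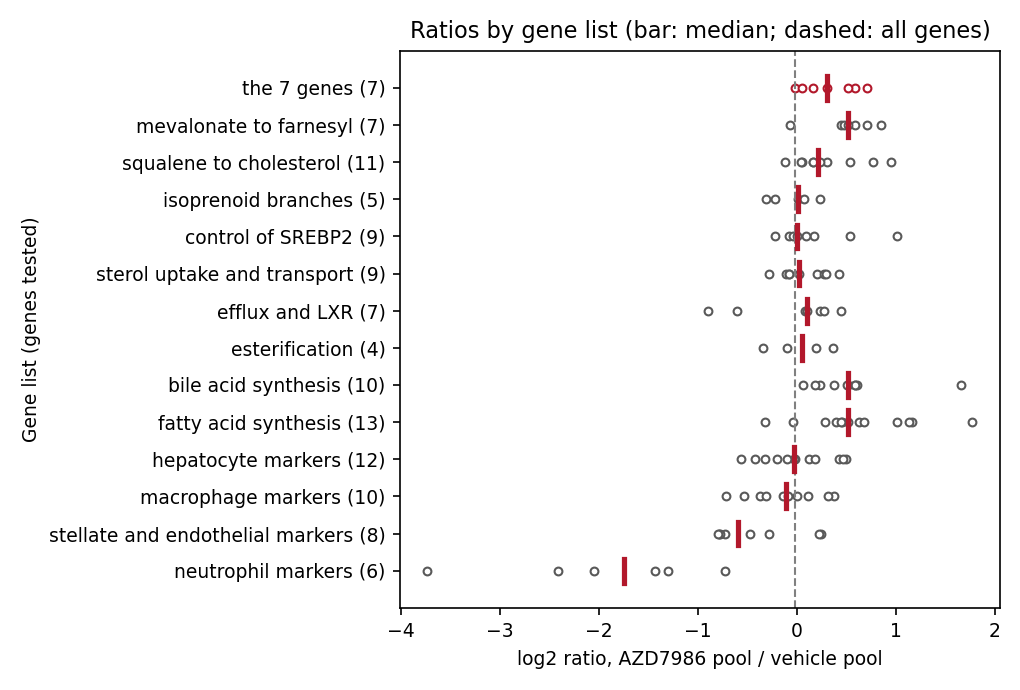
Log2 ratio of the AZD7986 pool over the vehicle pool for each gene tested (open circles) by gene list, with the number of genes tested in brackets, the median of each list as a red bar and the median of all genes tested as a dashed line. The 7 genes lie between ratios of 0.99 and 1.63, and the mevalonate arm has a median log2 ratio of 0.51, beside 0.52 for fatty acid synthesis and −1.74 for neutrophil markers.

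Lists next to the pathway are given only for their place beside the 7 genes. Bile acid synthesis, which uses cholesterol, had an interval above 1 for 9 of 10 genes tested and a median log2 ratio of 0.51. Fatty acid synthesis, driven by the related factor SREBP1, had an interval above 1 for 11 of 13 genes tested, below 1 for 1, and a median of 0.52. All but 1 of the genes tested in both lists lie in the deeper background, where the interval lay above 1 for 37.5%. In the fatty acid list 4 genes reached a ratio of 2, among them Acss2, which makes acetyl-CoA from acetate (468 and 848 counts, 2.19 [1.95, 2.45]). In the bile acid list 1 did, Cyp7a1 (119 and 312 counts, 3.16 [2.55, 3.94]), and none of the 18 cholesterol synthesis genes tested did. That ratio was reached by 2.23% of all genes tested and 0.733% of the deeper background. Scd1, the most counted gene of the fatty acid list, was the 1 with an interval below 1 (0.80 [0.78, 0.82]). Srebf1, which encodes SREBP1, had 1167 and 939 counts and, like Srebf2, an interval that included 1 (0.97 [0.89, 1.06]). It was named after its value was seen. The lists were not tested against each other.

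**Figure D4:**
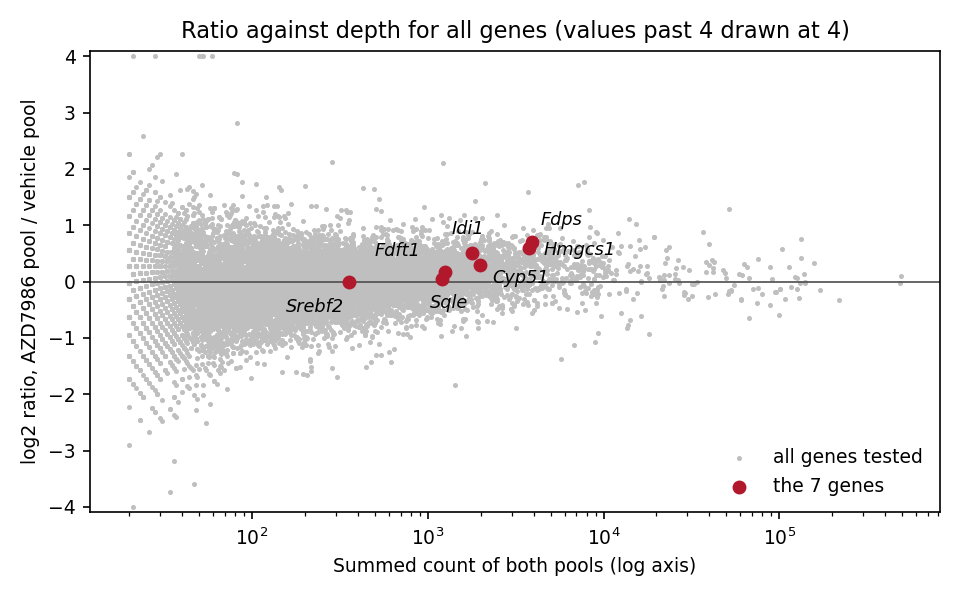
Log2 ratio of the AZD7986 pool over the vehicle pool against the summed count of both pools (log axis) for the 13523 genes tested (grey) and the 7 genes (red), with values past 4 drawn at 4. The spread narrows as counts grow, and the 7 genes, with 355 to 3903 counts, lie inside the cloud, with Fdps highest at a log2 ratio of 0.71.

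The libraries carried the markers of liver, and Alb, the albumin gene, had 267058 and 217749 counts. Fewer cells of a type and less RNA per cell cannot be told apart in pooled tissue. Hepatocyte markers summed to 90162 CPM with vehicle and 83204 with AZD7986, a sum that weighs the most counted genes, such as Alb, most. With size factors the ratio of that sum was 0.975 [0.971, 0.978]. Of the 12 intervals 5 lay above 1 and 6 below, with a median log2 ratio of −0.025. With that median set to 0, the summed ratio of the 7 genes was 1.41. Neutrophil markers summed to 130 and 46.7 CPM, a ratio of 0.38 [0.33, 0.43] with size factors, with 5 of the 6 tested below 1. Ly6g was at 0 counts with vehicle and Camp at 0 with AZD7986. Markers of stellate and endothelial cells summed to 391 and 288 CPM, a ratio of 0.78 [0.73, 0.82] with size factors, with 6 of 8 below 1. For comparison, the interval lay above 1 for 17.9% and below 1 for 15.1% of all genes tested. In the deeper background, where all hepatocyte markers lie, these shares were 37.5% and 19.3%. Mitochondrial transcripts took 9.17% and 7.74% of counts. The part of these differences in the ratios of the 7 genes was not tested.

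Reads of some members can be shared with other genes. In GENCODE M21 on mm10, Fdps lies on chromosome 3 from 89093588 to 89101959 and has 5 processed pseudogenes whose transcripts match the last 400 bases of one of its transcripts at 95% identity or more over at least 50 bases. The most counted of them, Gm3571, had 493 and 649 counts, a ratio of 1.59 [1.41, 1.79]. With all 5 added to it, Fdps had a ratio of 1.61 [1.52, 1.70], close to 1.63 alone. Another gene model, Gm43738, spans the end of Fdps on the same strand and was not analysed here. Pseudogenes of Idi1 and Fdft1 had at most 11 counts in a library each, and adding them left the ratios at 1.43 and 1.13. Fdft1 lies on chromosome 14 from 63145150 to 63179578, and its 3′ end overlaps that of Ctsb, the cathepsin B gene, on the other strand. Ctsb had 4395 and 3170 counts, a ratio of 0.87 [0.83, 0.91], and since the strand setting of the counting is not given, reads of this overlap cannot be told apart. The end of Cyp51 (chromosome 5, 4081145 to 4104746) overlaps that of Akap9 on the other strand in the same way, with 165 and 89 counts for Akap9 (0.65 [0.50, 0.85]). Hmgcs1 (chromosome 13, 119690379 to 119708260), Idi1 (chromosome 13, 8885501 to 8892451), Sqle (chromosome 15, 59315077 to 59331192) and Srebf2 (chromosome 15, 82147181 to 82205379) had no other gene over their 3′ ends. By the same rule of likeness, 6 genes on other chromosomes matched the end of a transcript of Srebf2 over 51 to 91 bases. Of these, Atr matched in the same orientation (85 and 87 counts), Pan3 (102 and 61 counts) and Tomm34 (98 and 42 counts) in the opposite one, and the other 3 were not analysed here. An intron of Srebf2 holds Mir33, a miRNA known to act on cholesterol efflux, which was not analysed here.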

How the data were processed

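Liver RNA of 2 pools was sequenced at transcript 3′ ends (MACE). Per the paper's methods and the labels, the authors removed duplicates by molecular identifiers, trimmed with cutadapt, clipped poly(A) tails, mapped reads to mm10 and deposited a count per gene from HTSeq. The authors also deposited CPM values (headed TPM, with no gene length) and a signal, the count divided by a DESeq2 size factor, which served as an alternative. The aligner, annotation release, strand setting and tool versions are not given in the sources. The labels give both libraries 1 treatment text, so their titles set the groups, and they name MACE-kit v.2 where the paper names another kit of the same maker. The table has 6 further columns of per-sample values, which were not used.

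Counts were scaled with DESeq2 1.42.0 size factors in R 4.3.3, and exact intervals were taken from the binomial split of each summed count in Python 3.11.15 (numpy 2.4.6, scipy 1.17.1, pandas 2.3.3, with figures from matplotlib 3.10.9). CPM values of a gene have exact Poisson intervals and shares of counts exact Clopper-Pearson intervals. The intervals were tested on simulated counts that held counting error only, with no difference between mice or pools. A summed count of 20 or more was needed to enter medians and counts of genes. With 1 library per group, no model could be fitted and no p-value is given. Entries without a symbol hold 3.70% and 3.71% of counts and were kept. The members, lists, motifs and alternatives were chosen with earlier results of these data known. Named are the 7 genes, the genes of the mevalonate, sterol and SREBP2 control lists, and of each other list the 2 most counted genes and the 3 with the largest change, though for bile acids, fatty acids and cell markers only those that bear on the text. Some genes of these lists are not reported here and were left out of the counts and medians of the lists. Alternatives were TMM scaling (edgeR 4.0.16), library totals, no scaling, hepatocyte markers as reference, other minimum counts (10, 50 or none), an interval at an error level of 0.1% and 0.5 added to scaled counts. The deeper background and the sums with pseudogenes were added after the data were seen.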

Additional observations from a re-analysis of the deposited data

How the results depend on the processing

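Depth limits Srebf2 most, and with 1 library per group no library could be left out. No paired analysis was possible because each group has 1 library. TMM scaling, 0.5 added to scaled counts and the sums with pseudogenes left the ratio of every member they were applied to inside its interval. Adding 0.5 could hardly move a ratio at the counts of these genes. The deposited normalized values gave the same ratios as the main scaling, being the same counts over DESeq2 size factors, and are no separate check. Library totals shift all log2 ratios by −0.079, which gave a summed ratio of the 7 genes of 1.31 and median log2 ratios of 0.22 for the members, 0.43 for the mevalonate arm, 0.14 for the sterol arm and −0.078 for the control of SREBP2. Without scaling, which leaves the difference in library total in place, these were 1.15, 0.031, 0.24, −0.054 and −0.27, the median of the efflux list was −0.17, and Fdft1 had a ratio of 0.929. Of the members, 3 then had an interval above 1 and 1 below it (Sqle, ratio 0.86). Over all genes the split of intervals above and below 1 went from 2420 and 2045 to 846 and 4914 without scaling. Genes at 2-fold or more and at 0.5-fold or less went from 302 and 503 to 144 and 1081. The members with an interval above 1 were 4 in place of 5 under library totals and with an interval at an error level of 0.1%, where Fdft1 was lost. At that error level, 1343 genes lay above 1 and 748 below. At 2-fold or more and at 0.5-fold or less there were 591 and 876 genes with a minimum summed count of 10, 133 and 210 with 50, and 3437 and 4630 with none.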
